A study of Mus musculus with 4 samples.

Results

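The genes described here are the nuclear-encoded subunit genes of respiratory complexes I, III and IV and of the ATP synthase (complex V), together with the Nduf-named assembly factors of complex I, measured in single cells of mouse spleen. They were taken by symbol, from all rows whose symbol starts with Nduf, Uqcr, Atp5 or any of Cox4 to Cox8, with a minimum of 20 unique molecular identifiers (UMIs, the count of distinct captured transcripts) over the 4 libraries. Of 32285 genes in the files, 90 matched and 87 reached the minimum. These were 37 genes of complex I, 8 of complex III, 17 of complex IV, 17 of the ATP synthase and 8 complex I assembly factors. Cox7b2, Cox8b and Cox8c were left out with 17, 4 and 0 UMIs, and the member with the fewest UMIs just inside the minimum was Ndufa4l2, with 46. Ndufa4 and Ndufa4l2 carry a complex I name but were counted with complex IV, where the Ndufa4 protein is found.

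The spleens came from female C57BL/6J mice aged 12 or 16 months, 1 library per mouse. The 2 wild-type (WT) mice carried no knock-in. The 2 D3TA mice were heterozygous for a germline Ccnd3 change made with CRISPR/Cas9, which replaces threonine 283 of cyclin D3, a partner of the G1-phase cyclin-dependent kinases, by alanine in every cell type. At these ages the submitters describe a severe myeloproliferative neoplasm in D3TA mice, and no label ties an age to a mouse. All values below therefore rest on 2 mice per genotype, and the smallest two-sided p of an exact permutation test of 2 against 2 is 0.333, so single summed values were not tested.

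The respiratory chain passes electrons from NADH (complex I) and succinate (complex II) through complex III and cytochrome c to oxygen at complex IV, and the ATP synthase uses the proton gradient that this builds. All of these complexes except complex II are mosaics: a small core is encoded by mitochondrial DNA and the rest by the nuclear genes described here, so that both genomes have to be expressed for a complete complex. Neutrophils are known for relying mainly on glycolysis as they mature, and erythroid precursors for rich mitochondria that serve haem synthesis before these are cleared. Several complex IV subunits exist as ubiquitous and tissue-restricted isoforms, among them Cox6a1 and Cox6a2 (heart and muscle), Cox6b1 and Cox6b2 (testis), and Cox4i1 and Cox4i2 (lung).

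Promoter sequences are shown for 5 members that are named in the results below. Ndufaf4 and Atp5g1 fell between neutrophil stages, Atp5k and Cox6a1 were higher in D3TA monocytes, and Cox7a2l moved against most members. Other members called in monocytes, such as Cox7a2, are not shown. Whether a motif goes with any of these changes was not tested. Each window runs 5′ to 3′ on the gene's strand, from 250 bases before the RefSeq transcript start (build GRCm38.p6) to 30 bases into the first exon. Capitals mark matches to the core motif of nuclear respiratory factor 1 (NRF1, the 10-letter palindrome in capitals in the Ndufaf4 window) or of ETS factors such as GABP (CCGGAAG, or CTTCCGG on the other strand). The windows lie at chr4:24897833-24898112 on the plus strand (Ndufaf4) and, on the minus strand, at chr11:96075602-96075881 (Atp5g1), chr5:108434370-108434649 (Atp5k), chr5:115348929-115349208 (Cox6a1) and chr17:83514304-83514583 (Cox7a2l). The Cox7a2l window lies inside the gene's span in the GENCODE annotation, which begins further upstream.
Ndufaf4: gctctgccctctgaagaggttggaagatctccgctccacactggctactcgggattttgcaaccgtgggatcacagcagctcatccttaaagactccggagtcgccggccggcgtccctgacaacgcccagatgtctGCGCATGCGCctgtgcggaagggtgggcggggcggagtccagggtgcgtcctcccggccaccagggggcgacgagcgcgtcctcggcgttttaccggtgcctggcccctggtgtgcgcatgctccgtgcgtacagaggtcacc
Atp5g1: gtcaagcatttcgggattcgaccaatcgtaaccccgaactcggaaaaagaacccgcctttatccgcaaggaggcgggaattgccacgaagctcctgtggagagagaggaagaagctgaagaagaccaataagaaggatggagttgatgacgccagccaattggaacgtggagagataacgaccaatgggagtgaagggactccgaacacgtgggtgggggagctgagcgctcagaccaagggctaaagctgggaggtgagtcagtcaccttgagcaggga
Atp5k: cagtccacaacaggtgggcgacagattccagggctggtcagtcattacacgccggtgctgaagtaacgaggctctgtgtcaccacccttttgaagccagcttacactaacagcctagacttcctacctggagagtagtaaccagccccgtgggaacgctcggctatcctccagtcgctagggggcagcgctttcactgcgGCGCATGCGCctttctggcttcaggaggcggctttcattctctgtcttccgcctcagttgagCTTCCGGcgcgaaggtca
Cox6a1: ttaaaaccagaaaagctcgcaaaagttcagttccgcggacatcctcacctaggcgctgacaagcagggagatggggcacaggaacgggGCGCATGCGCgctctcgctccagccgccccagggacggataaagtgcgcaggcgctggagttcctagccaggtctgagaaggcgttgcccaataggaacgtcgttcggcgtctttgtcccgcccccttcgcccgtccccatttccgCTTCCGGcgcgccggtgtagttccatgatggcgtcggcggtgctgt
Cox7a2l: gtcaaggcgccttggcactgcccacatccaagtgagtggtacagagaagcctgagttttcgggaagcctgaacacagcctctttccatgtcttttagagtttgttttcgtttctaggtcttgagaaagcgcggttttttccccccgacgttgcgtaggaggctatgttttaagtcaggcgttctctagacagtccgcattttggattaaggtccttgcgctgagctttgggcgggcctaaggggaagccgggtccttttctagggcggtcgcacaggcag

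Of the 87 members, 70 had a RefSeq promoter window. Searched over 250 bases before to 50 after the start on both strands, the NRF1 motif was found in 7 of these 70 windows (10.0%) and in 1.07% of the windows of all 27025 genes. The ETS motif was found in 17 (24.29%) against 9.93%, the YY1 motif AAGATGGCG in 8 (11.43%) against 1.64%, and the motif of oestrogen-related receptors, TCAAGGTCA, in 1 (1.43%) against 0.47%. Atp5k and Cox6a1 each held both an NRF1 and an ETS match, Ndufaf4 held an NRF1 match and the windows of Atp5g1 and Cox7a2l held none of these letters. The other members called higher in D3TA monocytes, Cox7a2 included, were not among the 7 with an NRF1 match, though not all members had a window. Among them, Ndufb6, Uqcr11 and Atp5md held an ETS match.

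The libraries held 81416981 to 143811696 UMIs, and 52330 of 64410 barcodes were kept as cells. The cells of WT replicate 1 were shallow, with a median of 1393 UMIs against 7559 to 7919 in the other 3 libraries, and pairs of libraries shared 32 to 127 cell barcodes. Cells were sorted into classes by gates of known marker genes, none of which is a member, and a class name below means cells that carry those markers (neutrophil-precursor-like, monocyte-like and so on). The genes that led each class were its markers or genes of the same lineage: Mpo and Elane in neutrophil precursors, Ltf and Ngp in immature neutrophils, Il1b and Csf3r in mature neutrophils, Fn1 and F13a1 in monocytes, and immunoglobulin genes with Jchain in plasma cells. Neutrophil precursors numbered 15 and 1 cells in the WT libraries and 182 and 84 in the D3TA libraries, and immature neutrophils 18 and 19 against 3045 and 1789. Because sums of at least 20 cells entered the tests, the comparisons of neutrophil stages rest on the 2 D3TA mice, with mature neutrophils (259 and 125 WT cells, 1120 and 457 D3TA cells) the only stage measured in all 4 mice.

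The summed level of the members was lower at each later stage of neutrophil maturation. In D3TA replicates 1 and 2 the members held 27548 and 24469 CPM (UMIs of the genes per 1000000 UMIs of all genes) in precursors, 12471 and 11163 CPM in immature neutrophils and 6636 and 5783 CPM in mature neutrophils. The WT libraries held 12213 and 11429 CPM in 18 and 19 immature cells and 7008 and 6773 CPM in mature neutrophils. The 15 and 1 WT precursors gave 18653 and 16914 CPM, but their markers were mixed. The 1 cell of WT replicate 2 held 43516 CPM of immature neutrophil markers against 11985 CPM of precursor markers. The 15 cells of WT replicate 1 held 3015 CPM of B cell markers, against 170 and 156 CPM in the D3TA precursors. With the WT precursors left aside, the 3 stages did not overlap. Per cell, members contributed 874 and 872 UMIs in D3TA precursors, 138 and 119 in immature and 28.8 and 21.0 in mature neutrophils. All UMIs per cell were lower at each later stage as well, going from 31713 and 35627 to 11077 and 10660 and then 4342 and 3629. The share taken by abundant genes moved with the stage too: the 10 most abundant genes held 14.5% and 13.5% of UMIs in precursors, 40.1% and 35.4% in immature and 28.5% and 21.1% in mature neutrophils, and the part of this in the CPM values was not tested.

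**Figure D1:**
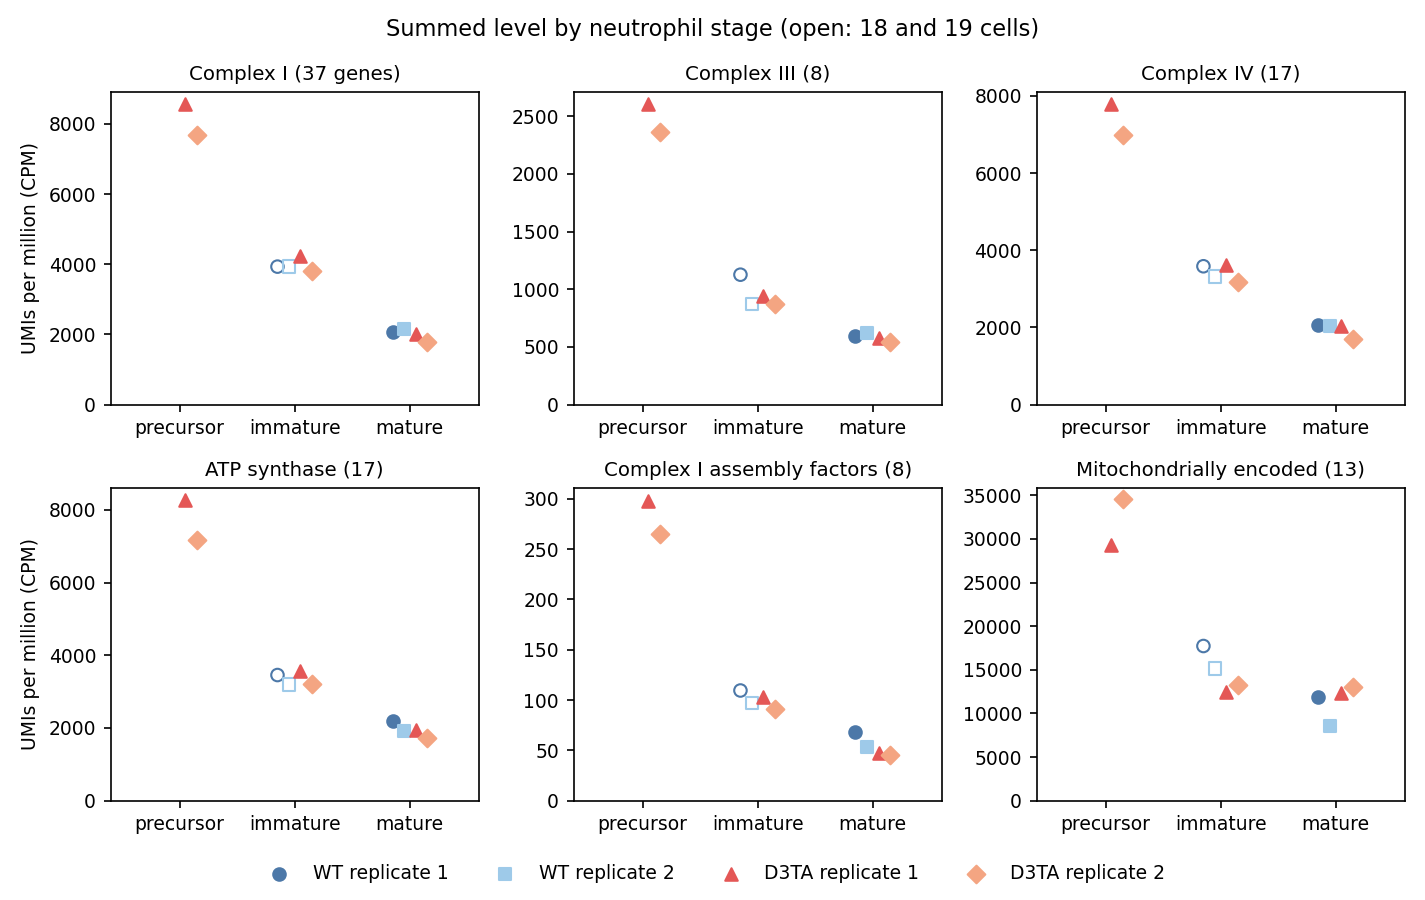
Summed level (CPM, linear axes from 0) of the members of each complex, of the complex I assembly factors and of the 13 mitochondrially encoded subunit genes in neutrophil precursors, immature and mature neutrophils. Each point is 1 library, open points are the WT immature sums of 18 and 19 cells, and WT precursors (15 and 1 cells) are not drawn. All 5 nuclear-encoded groups step down at both transitions, whereas the mitochondrially encoded genes drop from precursors to immature cells and lie between 12323 and 13246 CPM at both later stages in the D3TA libraries.

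From precursors to immature neutrophils 74 of 83 tested members fell and 1 rose (edgeR quasi-likelihood test with library as a term, Benjamini-Hochberg adjusted p under 0.05 over 11359 genes). Of all genes tested, 67.2% were called, 33.5% lower and 33.7% higher. The median log2 fold change of the members was -0.89 against 0.05 over all genes. Thus 30 of 37 complex I genes fell (median -0.85), 8 of 8 of complex III (-1.06), 13 of 13 tested of complex IV (-0.85), 16 of 17 of the ATP synthase (-0.89) and 7 of 8 assembly factors (-1.68). Without the library term 45 members fell and none rose. In a fit over all classes 50 of 85 fell and 1 rose, where 41.2% of 14308 genes were called, 17.2% lower and 23.9% higher. Fewer members fell in that fit without either D3TA mouse, which left 1 sum each of precursors and immature cells.

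Among these were the 3 genes for subunit c, which forms the proton-carrying ring of the ATP synthase. Atp5g1 went from 704 and 427 CPM in the D3TA precursors to 83.9 and 51.8 CPM in immature and 29.0 and 6.63 CPM in mature neutrophils, and each step lay outside the range of the stage before. Its log2 fold change at the first step was -2.76 ± 0.19 (SE, n = 2 mice, edgeR adjusted p = 7.62e-11), whereas Atp5g2 fell by 1.61 ± 0.15 and Atp5g3 by 1.28 ± 0.14. These genes encode the same mature protein behind different import sequences. Ndufaf4, an assembly factor of complex I, dropped furthest, from 32.9 and 22.7 CPM to 1.72 and 2.05 CPM (log2 fold change -3.63 ± 0.25). Mature D3TA cells had 0.823 and 1.21 CPM of it, and the 2 WT mature sums 12.8 and 0 CPM.

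In complex I the steepest falls of genes with a mean of at least 20 CPM were those of Ndufa12 (-2.02 ± 0.14), the acyl carrier Ndufab1 (-1.82 ± 0.14) and Ndufb2 (-1.80 ± 0.15), whereas Ndufs1, the largest core subunit with iron-sulphur clusters, had 49.0 and 44.1 CPM in precursors and 35.0 and 40.9 CPM in immature cells, a difference that did not pass the test (-0.03 ± 0.16, adjusted p = 0.889). Ndufv1, which holds the NADH-binding site, fell (-1.11 ± 0.14). In complex III Uqcr11 (-1.79 ± 0.14), Uqcrb (-1.55 ± 0.14) and the core protein gene Uqcrc1 (-1.40 ± 0.15) led, and in complex IV Cox7b (-1.49 ± 0.15), Ndufa4 (-1.36 ± 0.15) and Cox5a (-1.23 ± 0.14). Cox4i1 and Cox6a1, ubiquitous isoforms of complex IV, fell least there among those named, at -0.38 ± 0.15 and -0.36 ± 0.14. The single rise was that of Ndufaf7, a methyltransferase that acts on complex I during assembly (0.43 ± 0.18), with 18.7 and 16.4 CPM in D3TA precursors and 18.7 and 20.8 CPM in immature cells. No member rose with median-ratio scaling, with DESeq2, with doublets kept, without the library term or with sums of at least 10 cells (Ndufaf7 0.21, adjusted p = 0.425).

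From immature to mature neutrophils 72 of 83 tested members fell again and 3 rose, where 62.9% of all genes were called, 32.9% lower and 30% higher. The median log2 fold change was -1.01 for the members and -0.08 for all genes. By complex, 34 of 37 genes of complex I fell (median -1.16), as did 10 of 13 of complex IV, 15 of 17 of the ATP synthase (-0.96), 7 of 8 of complex III (-0.62) and 6 of 8 assembly factors (-1.05). Uqcrb, the subunit that closes the quinone-binding site of complex III, had 174 and 135 CPM in D3TA immature cells and 34.3 and 28.9 CPM in mature cells, and the WT mature cells had 35.7 and 22.6 CPM. Its log2 fold change was -2.08 ± 0.17. Ndufa4 went from 269 and 262 CPM to 73.4 and 60.3 CPM (-1.78 ± 0.17), with 84.2 and 74.0 CPM in WT mature cells. In both genes the mature sums of the 4 mice lay close together and far below any immature sum. Ndufa5 (-2.16 ± 0.21), Ndufa11 (-2.10 ± 0.18), Ndufc2 (-2.08 ± 0.18), Ndufv1 (-1.87 ± 0.22) and Atp5o (-1.91 ± 0.17), the stalk subunit that confers oligomycin sensitivity, also fell. Against noncycling immature cells alone the fall was -0.92 for Ndufa4 and -1.30 for Ndufc2, and both passed the test.

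Cox7a2l moved the other way. This relative of the complex IV subunit Cox7a2 helps to join complexes III and IV into supercomplexes, and C57BL/6 mice are known to carry a short form of its protein. Its level was 127 and 128 CPM in D3TA precursors, 85.4 and 74.5 CPM in immature cells and 139 and 127 CPM in mature cells, with 123 and 148 CPM in WT mature cells. All 4 mature sums were thus above both D3TA immature sums, and the log2 fold change was 0.94 ± 0.15 (edgeR adjusted p = 1.28e-05). Its paralogue Cox7a2 fell by 1.00 ± 0.15 in the same comparison, and its log2 fold change against noncycling immature cells was -0.61. Against noncycling immature cells alone the rise of Cox7a2l was 0.78 (adjusted p = 0.000178), and it missed the threshold without the library term (0.68, adjusted p = 0.0689). Ndufa7 (0.60 ± 0.16) and Atp5l (0.43 ± 0.15), a subunit of the ATP synthase dimer interface, were the other members that rose, and neither passed against noncycling immature cells (0.17 and 0.14), without the library term or with no filter on low counts (0.29 and 0.12, adjusted p = 0.0959 and 0.597). Cox8a (-0.01 ± 0.15), Cox6b1 (-0.26 ± 0.15) and Ndufs1 (-0.09 ± 0.18) did not pass the test at this step.

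**Figure D2:**
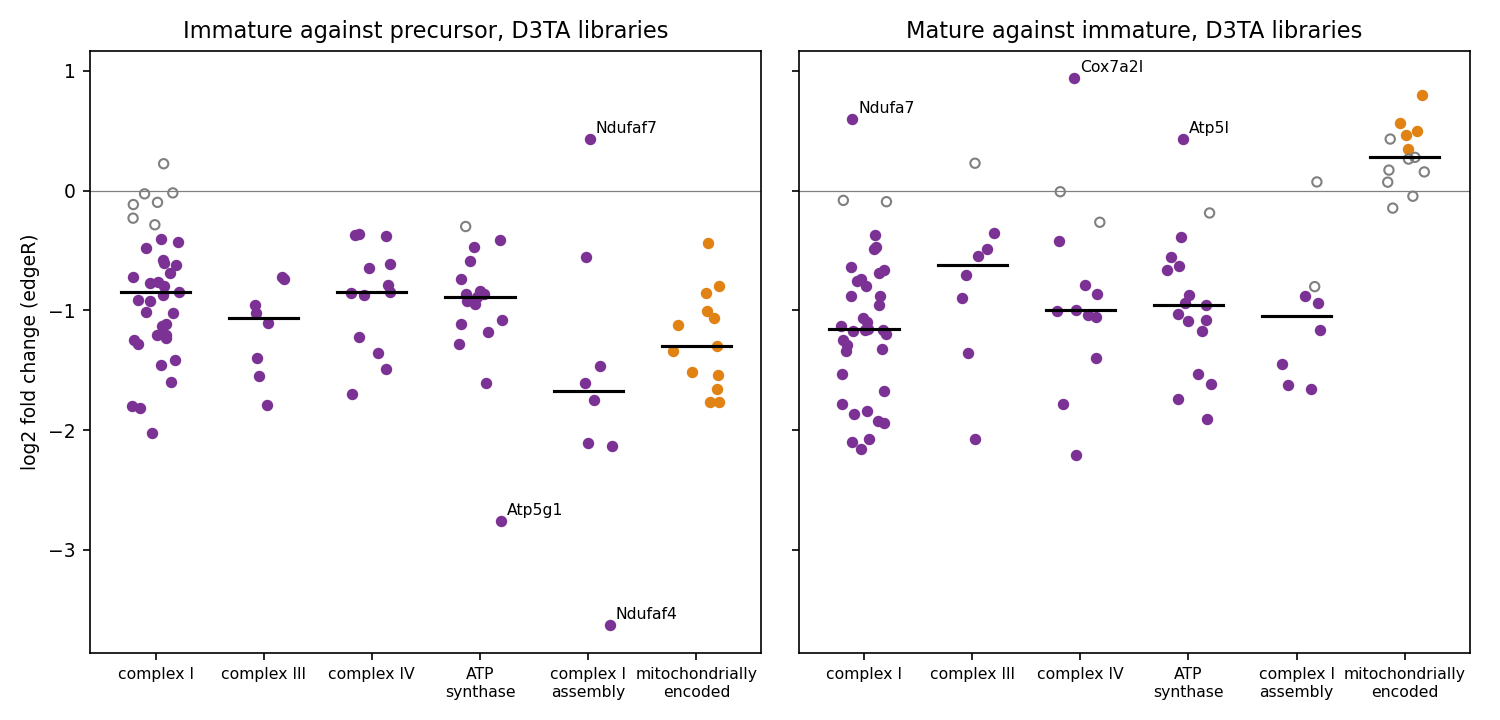
log2 fold change of every tested member between neutrophil stages, by complex, with the 13 mitochondrially encoded genes in orange. Filled points passed an edgeR adjusted p of 0.05, open points did not, and bars are medians; Ndufaf4, Atp5g1 and Ndufaf7 are named on the left and Cox7a2l, Ndufa7 and Atp5l on the right. Most members lie below 0 at both steps, whereas the mitochondrially encoded genes have a median of -1.30 at the first and 0.28 at the second.

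The subunits encoded by mitochondrial DNA fell at the first step, and at the second none of them fell. Their summed level was 29291 and 34547 CPM in D3TA precursors, 12492 and 13246 CPM in immature and 12323 and 13015 CPM in mature neutrophils. As plain ratios within a mouse, mature over immature was 0.986 and 0.983 for the mitochondrially encoded genes and 0.532 and 0.518 for the members, whereas immature over precursor was 0.426 and 0.383 against 0.453 and 0.456. In the fit all 13 mitochondrially encoded genes fell at the first step (median -1.30), and at the second 5 rose, among them mt-Nd2 (0.80 ± 0.15), and the median was 0.28. The rise depended on the settings: with at least 1000 UMIs, 500 genes and at most 5% mitochondrial UMIs per cell 1 rose and 1 fell (median -0.05), while 71 members still fell (median -1.03). None rose with sums of at least 10 cells (median 0.04) or without the library term (median -0.08). Members per mitochondrially encoded UMI therefore went from 0.998 and 0.843 in immature to 0.539 and 0.444 in mature D3TA cells, and stood at 0.591 and 0.791 in WT mature cells.

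Complex II and cytochrome c genes are encoded in the nucleus but are not members. Of 6 tested, 5 fell at the first step and 4 at the second, where 1 rose; Cycs, the electron carrier cytochrome c, fell by 1.74 ± 0.14 and then by 2.06 ± 0.19. In the citrate cycle list 8 of 12 genes fell and 1 rose at the first step, and 8 of 12 fell at the second; Idh3a fell by 2.48 ± 0.17 and 1.95 ± 0.36. Other assembly factors, outside the Nduf names, fell in 19 of 26 and in 10 of 26 with 3 rises. Among regulators of mitochondrial gene expression Myc fell at the first step (-3.17 ± 0.21) and Tfam, which packages and transcribes mitochondrial DNA, at the second (-1.36 ± 0.28). Genes that mark RNA free in the droplets rose beside these falls: all 9, such as Igkc and Hba-a1, were called higher in immature cells than in precursors (median 1.16) and 6 of 9 in mature than in immature cells (0.59). Their summed level was 743 and 759 CPM in D3TA precursors, 2675 and 1879 CPM in immature and 2708 and 3197 CPM in mature cells, and their part in the result was not tested.

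The share of cycling cells moved with the stages. Cells with UMIs of at least 4 of 12 cell cycle genes made up 97.8% and 100% of D3TA precursors, 37.9% and 34.7% of immature and 0.54% and 0.22% of mature cells. Noncycling cells, here and in monocytes, had UMIs of at most 1 of these genes, and cells in between were in neither set. Of 4871 immature cells over the 4 libraries, 1788 were cycling and 2342 noncycling. Within the immature stage the members held 14207 and 12720 CPM in cycling cells and 9594 and 8761 CPM in noncycling cells of the D3TA libraries. Of 84 members tested, 56 were higher in cycling cells and 9 lower, with a median log2 fold change of 0.41 against -0.01 for all genes, of which 66.2% were called, 33.1% higher and 33% lower. Atp5g2 (1.54 ± 0.07), Ndufa4 (1.33 ± 0.06) and Ndufc2 (1.22 ± 0.08) were among the highest. Ndufa7 (-0.52 ± 0.07), Ndufa13 (-0.46 ± 0.06), Ndufa1 (-0.38 ± 0.06) and Atp5l (-0.28 ± 0.06) were lower in cycling cells, whereas Cox7a2l (-0.10 ± 0.08) and Ndufs1 (-0.16 ± 0.10) did not pass. Cycling cells were also deeper, with 17384 and 18134 UMIs per cell against 7538 and 6822 in noncycling cells, and the part of depth in this comparison was not tested. Set against noncycling immature cells only, 66 members were still lower in mature neutrophils and 1 was higher. The median was -0.80 for the members and -0.05 for all genes. In the fit with all immature cells 62.9% of all genes were called, so the count alone says little. Of the 13 mitochondrially encoded genes, 10 were higher against noncycling immature cells and none lower, with a median of 0.56. The share of all genes called in the fit with noncycling cells is not given, so this count too says little alone.

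Across the spleen the members stood highest in erythroid cells and neutrophil precursors and lowest in mature neutrophils. Erythroid cells held 23988 and 25058 CPM in WT and 28102 and 27930 CPM in D3TA. Monocytes held 15172 and 14439 CPM in WT and 23677 and 19300 CPM in D3TA, and conventional dendritic cells 13647 and 14218 against 22106 and 14249. T cells (10320 to 13874 CPM), B cells (9796 to 13811), natural killer cells (10904 to 12681, in the 3 libraries with at least 20 cells), macrophages (7519 to 14216) and plasma cells (8640 to 9948) came next. Among these last 5 classes, the ranges of macrophages and B cells overlapped all others, whereas plasma cells lay below T and natural killer cells. No mature neutrophil sum (5783 to 7008 CPM) reached the lowest sum of any of these classes. The mitochondrially encoded genes had another order: B cells held 43068 ± 1525 CPM (SD, n = 2) and macrophages 43311 ± 2859 CPM in WT, above erythroid cells at 33761 ± 280 CPM. The filter of at most 10% mitochondrial UMIs per cell bounds these values from above.

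**Figure D3:**
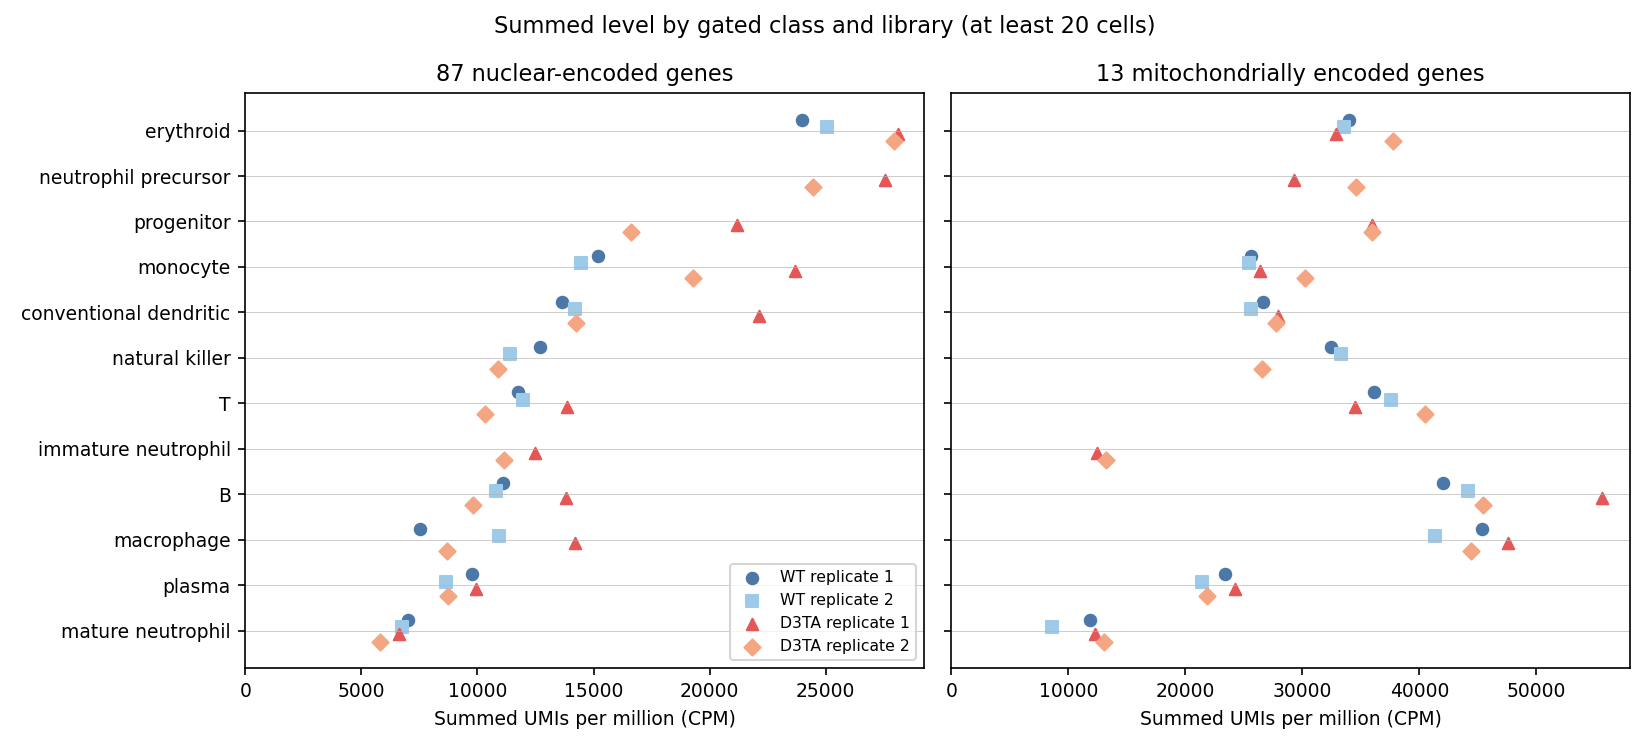
Summed level of the 87 members (left) and of the 13 mitochondrially encoded genes (right) in each gated class, in CPM on linear axes from 0. Each point is 1 library with at least 20 cells of the class. On the left, erythroid cells reach 23988 to 28102 CPM and mature neutrophils 5783 to 7008 CPM; on the right, B cells and macrophages lie furthest out.

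Each class was then compared with the mean of the other classes in 1 fit over all genes, with library as a term. In erythroid cells 74 of 85 members were higher and 1 lower (64% of all genes were called, 32.5% higher and 31.6% lower), with a median log2 difference of 1.02 against -0.26 for all genes. All 17 genes of the ATP synthase and all 8 of complex III were higher there. Atp5g1 stood at 684 and 728 CPM in WT and 847 and 652 CPM in D3TA erythroid cells, against 169 and 166 CPM in WT and 191 and 97.4 CPM in D3TA T cells, and its difference from the mean of the other classes was 2.20 ± 0.14. Ndufab1 (1.90 ± 0.13), Ndufv1 (1.82 ± 0.10) and Uqcr11 (1.82 ± 0.11) were higher as well. Ndufaf4 was also higher there (1.81 ± 0.17), with 44.3 to 63.2 CPM in the 4 erythroid sums. In precursors 77 of 85 were higher and none lower (47% of all genes were called, 26.9% and 20.1%), led by Atp5g1 (1.92 ± 0.19), Uqcrb (1.82 ± 0.15) and Ndufb2 and Ndufb3 (1.73 ± 0.15 and 1.73 ± 0.13). Erythroid cells were cycling in 57.9% to 87.9% of cells, and all 12 cell cycle genes were higher there.

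In mature neutrophils 62 of 85 members were lower and 3 higher than in the mean of the other classes (61.8% of all genes were called, 30.5% lower and 31.3% higher; median -0.83). All 3 subunit c genes were lower, Atp5g1 by -2.69 ± 0.23, Atp5g2 by -2.13 ± 0.16 and Atp5g3 by -1.90 ± 0.19 on the log2 scale, as were Ndufa5 (-2.57 ± 0.21) and Ndufc2 (-2.24 ± 0.18), whereas Atp5l (0.58 ± 0.11) and Ndufa7 (0.45 ± 0.11) were higher. In macrophages 65 of 85 were lower and 2 higher (42% of all genes were called, 20.5% lower and 21.5% higher; median -0.73), led by Ndufb11 (-1.61 ± 0.18), Atp5o (-1.61 ± 0.20) and Cox5b (-1.35 ± 0.20), and 10 of 13 mitochondrially encoded genes were higher. The haemoglobin gene Hbb-bs, an erythroid transcript, was also higher in the macrophage class (5.49 ± 0.42), and its part in the result was not tested.

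T, B and natural killer cells had more members lower than higher. In T cells 49 of 85 were lower and 4 higher (52.2% of all genes were called, 17% lower and 35.3% higher). In B cells 44 were lower and 4 higher (51% called, 15.3% lower and 35.7% higher). In natural killer cells 62 were lower and none higher (28.2% called, 13.9% lower and 14.3% higher). Ndufaf4, Ndufaf5 and Cox7a2l were 3 of the 4 higher members in each of T and B cells, with values for Ndufaf4 and Cox7a2l of 0.83 ± 0.17 and 0.55 ± 0.12 in T cells and 0.75 ± 0.17 and 0.37 ± 0.13 in B cells. Plasma cells had 41 members higher and 5 lower (47% of all genes were called, 27.9% and 19.1%), among them Ndufa1 (1.77 ± 0.12), Ndufs3 (1.31 ± 0.11) and Uqcrq (1.22 ± 0.11). The 10 most abundant genes held 49.1% to 55.0% of plasma cell UMIs. In WT the summed level of plasma cells was 9203 CPM, below T cells (11867 CPM), B cells (10953 CPM) and natural killer cells (12043 CPM). The fitted directions of these classes thus did not follow the order in CPM, and the part of scaling in this was not tested. Monocytes had 35 higher and 1 lower (34.6% called, 23.7% and 11%), among them Ndufaf7 (1.31 ± 0.16). Conventional dendritic cells had 24 higher and 2 lower (36.7% called, 25.1% and 11.6%), including Uqcrb (0.71 ± 0.12) and Cox7a2l (0.70 ± 0.13). Immature neutrophils had 32 higher and 9 lower (50.1% called, 31.8% and 18.3%), with Ndufb7 (1.42 ± 0.16) and Ndufv3 (1.25 ± 0.16) up and Ndufaf4 (-2.60 ± 0.31) and Ndufaf2 (-1.27 ± 0.22) down. Progenitors, in sums from the D3TA libraries of 21 and 25 cells, had 9 higher and 13 lower (30.6% called, 17.2% and 13.4%), and DESeq2 gave 17 higher and 7 lower. Without D3TA replicate 2 the members called in either direction were 22 in T cells, 20 in B cells, 19 in natural killer cells, 29 in plasma cells, 15 in monocytes, 14 in conventional dendritic cells, 14 in immature neutrophils and 4 in progenitors, and without WT replicate 2 they were 31 in natural killer cells. Progenitors gave 6 without D3TA replicate 1, most of them higher.

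Most UMIs of the tissue-restricted complex IV isoforms Cox6a2 and Cox6b2 lay in few classes. Cox6a2, on chromosome 7 (128205435 to 128206387, minus strand), had 1660 UMIs in all kept cells, of which 850 (51.2%) lay in 58 plasmacytoid dendritic cells, 0.111% of the cells. It reached 1288 and 788 CPM in the 17 and 14 WT cells and 1608 and 1069 CPM in the 17 and 10 D3TA cells of that class. A further 428 UMIs (25.8%) lay in plasma cells, at 71.0 and 13.8 CPM in WT and 23.5 and 25.8 CPM in D3TA. B cells, the largest class with 25190 cells, held 82 of its UMIs. No other class exceeded 71.0 CPM in any library. Classes under 20 cells entered no test, so these are described levels.

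Cox6b2, on chromosome 7 (4751792 to 4753094, minus strand), had most of its UMIs in erythroid cells. Of 4807 UMIs, 2498 (52.0%) lay in 658 erythroid cells, at 132 and 172 CPM in WT and 149 and 165 CPM in D3TA. D3TA neutrophil precursors had 33.4 and 43.8 CPM, immature cells 8.69 and 10.5 CPM and mature cells 1.65 and 1.81 CPM. Progenitors held 83 of the Cox6b2 UMIs in 58 cells, monocytes 116 in 490 cells and basophil or mast cells 24 in 86 cells. B cells held 188 in 25190 cells. The log2 fold change of Cox6b2 from immature to mature cells was -2.21 ± 0.36. Within the immature stage it was higher in cycling cells by 1.97 ± 0.22, at 12.3 and 15.4 CPM against 3.12 and 2.50 CPM. Against noncycling immature cells alone the difference of Cox6b2 in mature cells was -0.80 and did not pass (adjusted p = 0.187). The paired ubiquitous isoform Cox6b1 did not pass either of these tests. Cox4i2, on chromosome 2 (152754173 to 152765037, plus strand), had 193 UMIs, 87 of them in plasma cells (4.09 to 10.5 CPM) and 25 in macrophages (3.89 and 6.63 CPM in WT, 13.4 and 24.2 CPM in D3TA, from 1 to 18 UMIs per library). Ndufa4l2 had 35 of its 43 UMIs in plasma cells. B cells held 11 UMIs of Cox4i2 in all, and the 58 progenitors held 7.

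**Figure D4:**
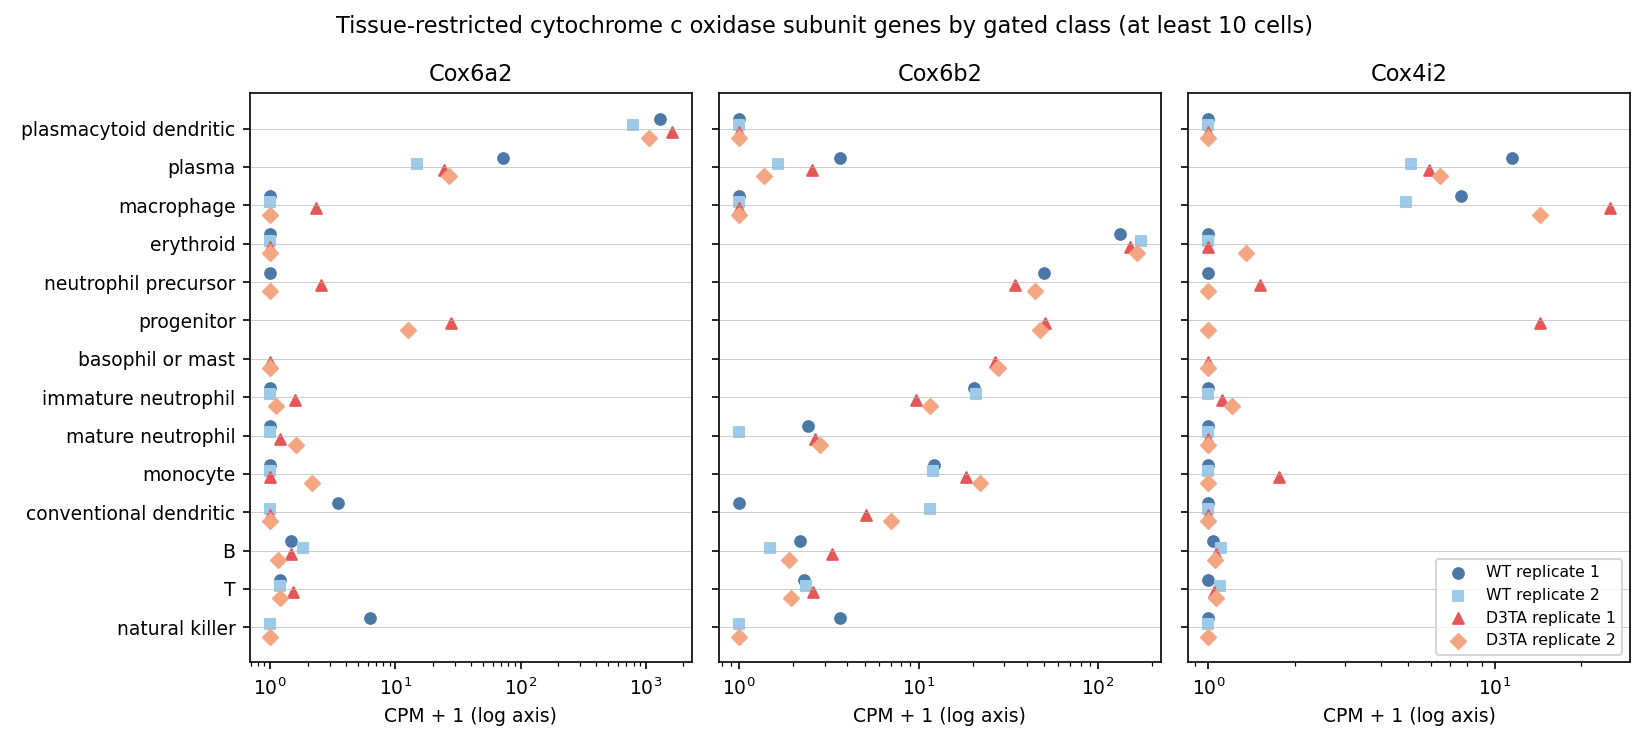
Level of the tissue-restricted isoform genes Cox6a2, Cox6b2 and Cox4i2 in each gated class, as CPM + 1 on log axes, so that a library with no UMI lies at 1. Each point is 1 library with at least 10 cells of the class. Cox6a2 stands out in plasmacytoid dendritic cells (788 to 1608 CPM) and Cox6b2 in erythroid cells (132 to 172 CPM). Cox4i2 rests on few UMIs, with plasma cells at 4.09 to 10.5 CPM and macrophages at 3.89 to 24.2 CPM.

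The comparison of the study, D3TA against WT, was made within each class that had at least 20 cells in all 4 libraries. In mature neutrophils none of 76 tested members was called by edgeR or by DESeq2, and 1 had an unadjusted p under 0.05 (0.899% of 6894 genes were called). Their summed level was 6891 ± 166 CPM in WT and 6209 ± 603 CPM in D3TA (SD, n = 2), while the fitted median was 0.15, so the sign depended on the scaling. The highest fitted value was that of Ndufv3 (0.77 ± 0.36, adjusted p = 0.373), which did not pass. D3TA cells in this gate carried more transcripts of immature neutrophil markers (5507 and 4771 CPM, all 5 genes detected, against 807 and 539 CPM).

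In monocytes 11 of 82 members were higher in D3TA and none lower, where 14.6% of 8903 genes were called, 8.91% higher and 5.73% lower. The median over the members was 0.59 and over all genes 0.01. Atp5k, a small subunit of the ATP synthase dimer, had 112 and 88.2 CPM in WT and 229 and 259 CPM in D3TA, the groups did not overlap, and its log2 fold change was 1.25 ± 0.28 (edgeR adjusted p = 0.00428). Cox7a2 had 208 and 217 CPM in WT and 513 and 400 CPM in D3TA (1.09 ± 0.28, adjusted p = 0.0119), and Cox6a1 193 and 151 CPM against 328 and 328 CPM (0.91 ± 0.27). The others called were Ndufc1, Ndufb6 and Ndufb11 of complex I, Uqcr11 of complex III, Cox5b and Ndufa4 of complex IV and Atp5md and Atp5g3 of the ATP synthase, at 0.83 to 0.99. Cox7a2l had 382 and 331 CPM in WT and 227 and 207 CPM in D3TA, a difference that did not pass the test (-0.74 ± 0.27, adjusted p = 0.073).

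The share of cycling cells and the neutrophil marker sums of the monocyte gate moved with genotype. Cells counted as cycling were 0% and 1.92% of WT monocytes and 61.6% and 48.2% of D3TA monocytes, and all 12 cell cycle genes were higher in D3TA. The 6 neutrophil precursor markers summed to 16.8 and 25.7 CPM in WT, with Ms4a3 and Prss57 at 0 in both, and to 714 and 398 CPM in D3TA, with none at 0; the 5 immature neutrophil markers summed to 114 and 99.2 CPM against 631 and 490 CPM. Among noncycling monocytes alone the members held 15284 and 14408 CPM in WT and 19159 and 16613 CPM in D3TA. No member was called there by edgeR, 13 had an unadjusted p under 0.05 and the median was 0.25. Atp5k had 111 and 85.4 CPM against 230 and 204 CPM (1.12, edgeR adjusted p = 0.174). The other members called in all monocytes had smaller log2 fold changes here than there. They stood at 0.25 (Ndufb11) to 0.78 (Uqcr11), with Cox7a2 at 0.51 and Cox6a1 at 0.55. These sums held 232 of the 490 monocytes, and the part of the smaller cell number in the absence of calls was not tested. The count of 11 also rested on single libraries: it was 0 without WT replicate 1 and 0 without WT replicate 2, 12 without D3TA replicate 1 and 64 without D3TA replicate 2. With the replicate number as a block 31 members were called, and DESeq2 called 6.

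In the other classes no member was called by edgeR or DESeq2. Members with an unadjusted p under 0.05 numbered 6 of 75 in macrophages, 3 of 82 in conventional dendritic cells and 0 in B cells (of 85), plasma cells (84), T cells (83) and erythroid cells (83), and the percentages of all genes called were 0.121, 0.0675, 0, 0.0194, 0.0518 and 0.259. The medians over the members were 0.39 in macrophages, 0.40 in conventional dendritic cells, 0.16 in B cells and at most 0.06 in the other 3. In nearly all of these classes D3TA replicate 1 lay above D3TA replicate 2, as in B cells with 13811 and 9796 CPM around WT sums of 11108 and 10798 CPM. Without D3TA replicate 2, 61 members would be called in conventional dendritic cells, 37 in B cells, 3 in macrophages, 2 in mature neutrophils and 1 in erythroid cells, all of them higher. Wherever 1 mouse is left out here, the lone mouse of its genotype is assumed to vary like the 2 mice of the other. These counts thus have no replicate check in that arm. The share of all genes called in the same runs is not given, so the counts do not set the members apart from other genes. The same holds for such counts in monocytes, the lineage and the spleen, and for those with the replicate block.

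**Figure D5:**
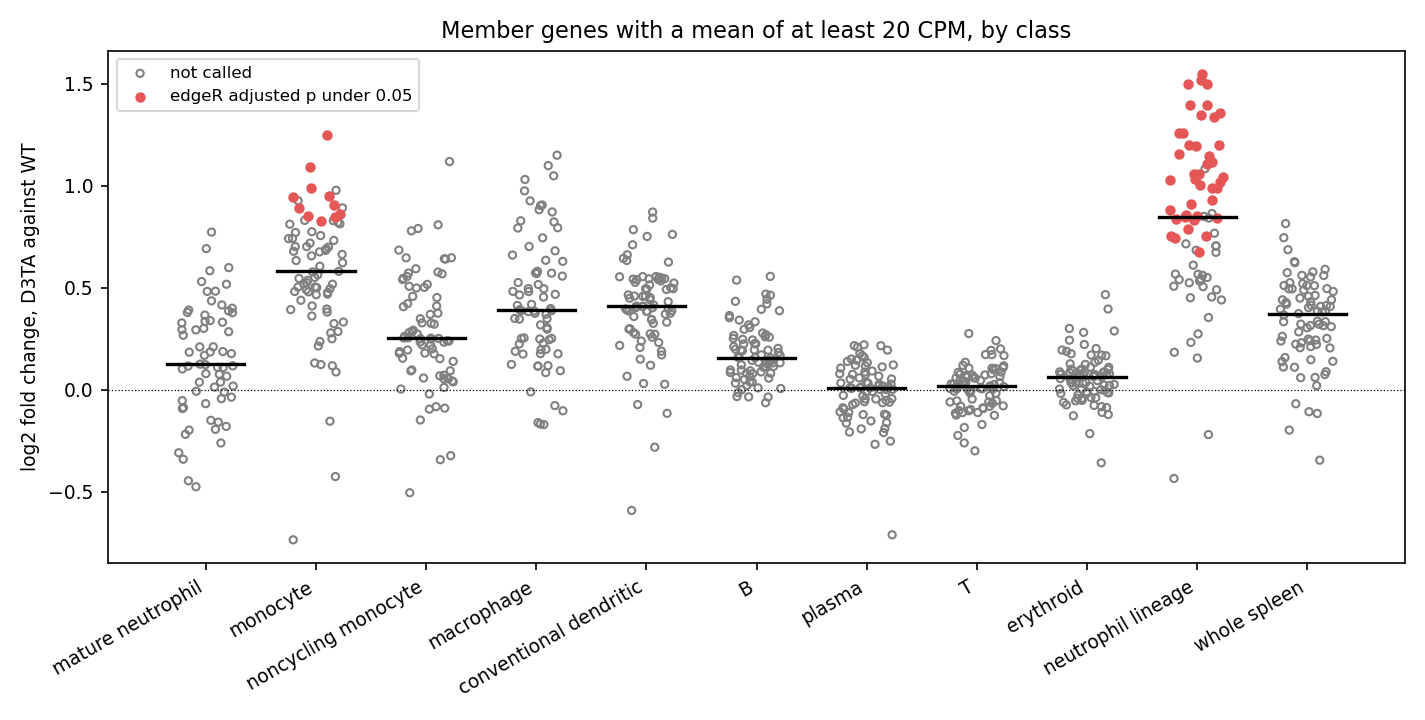
log2 fold change, D3TA against WT, of each member with a mean of at least 20 CPM in each class, among noncycling monocytes, in the neutrophil lineage taken as 1 sum and in the whole spleen. Red points passed an edgeR adjusted p of 0.05, open points did not and bars are medians. Calls appear in monocytes (11) (none among noncycling cells) and in the whole neutrophil lineage.

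Summed over the whole neutrophil lineage, 42 of 83 members were higher in D3TA and none lower, where 23.4% of 12452 genes were called, 11.2% higher and 12.3% lower. The lineage sum held 13129 ± 939 CPM of members in D3TA and 8721 ± 397 CPM in WT (SD, n = 2). Ndufb2 had 23.4 and 27.7 CPM in WT and 70.9 and 65.3 CPM in D3TA (1.55 ± 0.28, adjusted p = 0.00329), and Atp5g3 53.5 and 53.1 CPM against 122 and 126 CPM (1.35 ± 0.23, adjusted p = 0.0023). Cox7a2l was at 135 and 135 CPM in WT and 96.7 and 84.9 CPM in D3TA, which did not pass the test (-0.44 ± 0.23). The mix of stages in these sums differed: mature cells were 259 of 292 and 125 of 145 lineage cells in WT, and 1120 of 4347 and 457 of 2330 in D3TA. Without D3TA replicate 1, 20 members were called in the lineage, and without WT replicate 1, 11, all higher.

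In the whole spleen, of 87 members 1 was higher in D3TA and none lower, where 6.08% of 18344 genes were called, 5.7% higher and 0.382% lower, and 12 had an unadjusted p under 0.05. The one called was Cox6b2, the isoform above with most of its UMIs in erythroid cells. It had 5.42 and 7.77 CPM in WT and 15.3 and 18.3 CPM in D3TA (1.43 ± 0.24, edgeR adjusted p = 0.0374). Erythroid cells held 152 and 404 of its UMIs in WT and 1023 and 919 in D3TA, and the neutrophil lineage 6 and 8 against 494 and 335. In such sums, more cells of a type and more RNA per cell cannot be told apart. The call was lost without WT replicate 1 (adjusted p = 0.224), without WT replicate 2 (0.107) and without D3TA replicate 1 (0.0573). Without D3TA replicate 2, 60 members would be called.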

How the data were processed

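Spleen cells of 4 mice were profiled as droplet single-cell RNA-seq, and the deposited values are UMI counts per gene and cell, written by Cell Ranger 7.0.1 per the file headers, on mm10 per the submitters' processing notes. Cells kept had at least 500 UMIs, 250 genes and at most 10% mitochondrial UMIs, and Scrublet removed 1615 doublets. Gates over 107 markers of 15 classes placed 42506 cells, left 6153 as mixed and 3671 ungated. Counts were summed per library and class (at least 20 cells) and tested with edgeR 4.0.16 (quasi-likelihood, TMM scaling, filter on low counts, Benjamini-Hochberg adjusted p under 0.05 over all genes tested). Stage and class fits had library as a term; the stage fit also held the 2 WT mature sums. Genotype fits had 2 mice per group, and p-values measure the spread between these mice.

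Members and gene lists were chosen with earlier results of these data known. Named genes were the 3 with the largest change per complex and direction, among called genes with a mean of at least 20 CPM, the isoform sets and core subunits in every comparison, and the 2 with the smallest p per other list; others, such as Ndufaf4 and Ndufaf7 between stages, were named after their values were seen. Fits were tested on simulated data: 98.6% of 4-fold and 75.6% of 2-fold changes were recovered for mature against immature cells, and 80.9% and 6.6% for D3TA against WT mature neutrophils. For D3TA against WT in the whole lineage 44.1% and 0% were recovered. False calls made up 7.64% of calls for mature neutrophils against other classes and 6.05% for the whole spleen, above the 5% aimed at. UMI intervals cover counting error only. Alternatives were DESeq2 1.42.0, median-ratio scaling, other filters and gates, a replicate block and leaving out each library, where a genotype left with 1 mouse takes its spread from the other.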

Additional observations from a re-analysis of the deposited data

Results flagged for a closer look

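The difference between D3TA and WT itself differed between cell classes for 4 members, by an interaction term in edgeR with Benjamini-Hochberg adjustment over all genes. Atp5k differed more in monocytes than in B cells, by 1.14 ± 0.27 on the log2 scale (SE, adjusted p = 0.0302), and more than in mature neutrophils, by 1.10 ± 0.29 (adjusted p = 0.042). Cox7a2 differed more in monocytes than in B cells, by 0.98 ± 0.24 (adjusted p = 0.0394). Uqcr11 differed more in monocytes than in mature neutrophils, by 1.05 ± 0.29 (adjusted p = 0.0497). Cox7a2l went the other way, with -0.99 ± 0.25 between monocytes and mature neutrophils (adjusted p = 0.0352). Of all genes tested, 3.83% were called for monocytes against B cells and 5.22% for monocytes against mature neutrophils. These calls depended on the processing. For monocytes against B cells no member was called with median-ratio scaling, under the stricter cell filter or without either WT mouse. For monocytes against mature neutrophils none was called with DESeq2, without D3TA replicate 1 or without WT replicate 1, and those called with median-ratio scaling (2), under the stricter cell filter (1) and without WT replicate 2 (1) were lower. The 2 comparisons share the monocyte sums, whose share of cycling cells differed between genotypes as given above, and the part of this in the interactions was not tested.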

How the results depend on the processing

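The fall from immature to mature neutrophils kept its direction under every alternative run. Leaving out a WT library could not test this step, because its lone mature sum is taken up by its own library term. Cox7a2l, for example, stood at 0.942 without WT replicate 1 and 0.941 without WT replicate 2. The stage fit could not be run without either D3TA library. Runs without a D3TA mouse could come only from the fit over all classes, where 1 immature sum remained. For immature against precursor cells the 75 calls became 45 without the library term, and in a fit over all classes 47 under a stricter cell filter, 47 under a stricter gate and 22 to 75 with single libraries left out. For B cells against other classes DESeq2 called 73. Progenitor calls turned in balance: 24 with DESeq2, 19 with median-ratio scaling, 6 under the stricter cell filter and 4 to 16 with single libraries left out.

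With single libraries left out, class calls ranged from 14 to 42 (immature), 15 to 39 (monocyte), 14 to 25 (conventional dendritic), 20 to 39 (B), 29 to 50 (plasma), 22 to 53 (T) and 19 to 59 (natural killer). Genotype calls ranged from 0 to 2 (mature), 0 to 64 (monocyte), 0 to 3 (macrophage), 0 to 61 (conventional dendritic), 0 to 37 (B), 0 to 1 (erythroid), 11 to 50 (lineage) and 0 to 60 (spleen). Differences between classes ranged from 0 to 1 (mature minus B), 0 to 12 (monocyte minus B) and 0 to 2 (monocyte minus mature).

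For genotype in monocytes DESeq2 called 6, noncycling cells gave 0 and the replicate block 31; in the spleen DESeq2 called 3. Monocyte minus B gave 0 with median-ratio scaling, 4 with no filter on low counts, 0 under the stricter cell filter and 1 under the stricter gate. Monocyte minus mature gave 0 with DESeq2, 1 with doublets kept, 2 lower members with median-ratio scaling, 10 with no filter and 1 lower member under the stricter cell filter. Single genes changed sign for Ndufa3 in mature neutrophils (-0.01 to 0.26 with single libraries left out, below 0 without D3TA replicate 1 or WT replicate 2), Ndufs1 in macrophages (-0.56, stricter cell filter) and Cox4i2 in progenitors (-3.33 under that filter, -2.79 to 5.62 with single libraries left out and below 0 without D3TA replicate 1). The cause was not tested for any of these. Deviations of same-numbered mice had a Pearson r across genes of -0.54 to 0.10 over 10 sums. With 2 mice per genotype this cannot settle whether the numbers pair them. The block gave 46 calls in the lineage, 1 in the spleen and 0 elsewhere but in monocytes. Crossed numbers gave 1 in the spleen and 0 in T cells and macrophages.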

Other observations

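Cox7a1, the muscle isoform of the Cox7a subunit, had 229 UMIs in all kept cells. B cells held 93 of them (40.6%, with 48.1% of the cells), T cells 46 and the neutrophil lineage 46, so that it was spread over the large classes, unlike Cox6a2 and Cox6b2. D3TA basophil and mast cells of replicate 1 (59 cells) held 21493 CPM of members, and the 19 cells of replicate 2 held 12909 CPM.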
